A study of Mus musculus with 2 samples.

Results

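Integrins and laminins were measured in ureters dissected from mouse embryos at E18.5, shortly before birth. Every array probe named for an integrin alpha or beta subunit, or for a laminin alpha, beta or gamma chain, was taken. This gave 50 probes of 38 genes, 27 integrin and 11 laminin genes, and 33 of the 38 (22 integrin and 11 laminin genes) were among the 20989 features tested. The other 5 genes, Itga2, Itgad, Itgae, Itgax and Itgb8, were not well above background in any of the 4 channels and are not described further. Genes of integrin-binding proteins (Itgb1bp, Itgb3bp) and the integrin beta-like gene Itgbl1 encode no integrin subunit and were left out.

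The Rbpj-cKO embryos carried the genotype Tbx18(cre/+);Rbpj(fl/fl), and the controls Rbpj(fl/?), that is, at least 1 floxed Rbpj allele, with no cre listed. All embryos were of the NMRI strain. Cre expressed from the Tbx18 locus acts in the mesenchyme around the ureteric bud, so the urothelium is not its target, and Rbpj-cKO embryos also carry cre on 1 Tbx18 allele, which the controls do not list. The question behind the comparison is how the transcripts of the fetal ureter change once Rbpj, the DNA-binding partner of Notch receptors, is targeted in the mesenchyme. There were 2 arrays of 2 colours, and each paired an Rbpj-cKO RNA with a control RNA of matching sex. Rbpj-cKO RNA was red on the male and green on the female array, so sex, dye orientation and RNA pair cannot be told apart. The number of embryos behind each RNA is not stated in the sources used here, so what spread between embryos the p-values cover is unknown. They rest on the spread between these 2 arrays. For each gene, limma combines its own spread (1 residual degree of freedom) with that shared over all features (10.3 prior degrees of freedom).

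Laminins are secreted trimers of 1 alpha, 1 beta and 1 gamma chain that polymerise into the sheet on which epithelia, muscle, endothelium and nerve rest, the basement membrane. Integrins are membrane receptors of 1 alpha and 1 beta subunit. The alpha subunit largely sets the ligand (collagens, laminins, proteins with an arginine-glycine-aspartate sequence, or immunoglobulin-type receptors on other cells). The beta subunit tail recruits talin and kindlin, which link the receptor to actin, or, in integrin alpha6beta4, plectin, which links it to keratin in hemidesmosomes. In the ureter the urothelium lies on a basement membrane, and each smooth muscle cell of the wall is wrapped in another.

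Between 66.8% and 71.1% of spots were well above background in each channel, and no spot was saturated. Rbpj had log2 ratios of -1.58 (male array) and -0.93 (female array; mean -1.25, limma adjusted p = 0.076). The sources used here do not place its probe inside or outside the deleted part, so this value checks no label. Over all features the ratios of the 2 arrays had a Pearson r of -0.178, a description across genes, which are not independent replicates. Each of the 18 urothelium markers and 12 smooth muscle markers measured was well above background in all 4 channels, so both tissues of the ureter were present in every RNA.

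Of the 38 genes, 11 have several probes, and a gene was represented by its brightest one. The probe sequences below are shown because they bear on how the values of their genes read. Each is 60 bases long, given 5′ to 3′ on the transcript strand with its mm9 position from the files.
Itgb1, chr8:131250081-131255976, plus strand: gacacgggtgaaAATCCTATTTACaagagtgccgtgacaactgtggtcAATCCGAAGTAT
Itga4, dim probe, chr2:79153985-79155115, plus strand: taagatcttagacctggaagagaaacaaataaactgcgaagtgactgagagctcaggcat
The capitals in the Itgb1 probe mark the codons of 2 asparagine-proline-any-tyrosine motifs of the beta1 tail, of which the first binds talin and the second kindlin. This probe spans 5896 bases of the genome and the dim Itga4 probe 1131 bases, so both read across a splice junction. The Itgb1 probe stands for its gene, and the Itga4 sequence is the weaker probe of a gene whose brighter probe gave other values. Of the 9 genes with more than 1 measured probe, only Itgav had probe means of opposite sign. The means hide differences on a single array, where the probes of Itgam, Itgb6, Lama2 and Lama3 also differed in sign.

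No integrin or laminin gene passed the test. Of the 33 tested, 0 had a limma adjusted p (Benjamini-Hochberg over all features) under 0.05, against 0.129% of all features (27 of 20989). At an unadjusted p under 0.05 there were 4, namely Itga4, Lama1, Itgb4 and Itgav, against 708 features in all (3.37%). In what follows a pair of ratios is log2 Rbpj-cKO over control, the male array first, and a pair of levels on an array is Rbpj-cKO first, then control. A ratio of -0.00 lies below 0 by less than the rounding. Where the levels of the groups are said not to overlap, or both of 1 group to be higher, this describes 4 values. The share of all features with such levels is not given, so it is no evidence of a change. Itga4 was the 1 member at least 1.5-fold higher on both arrays, a change seen in 0.205% of all features, and 0 members were as much lower on both, against 0.434% of all features. The laminins leaned one way: 7 of 11 (63.6%) were higher in Rbpj-cKO RNA on both arrays and none of them (0) was lower on both, while 21.7% of all features were higher and 19.7% lower on both. Of the 22 integrins, 9 (40.9%) were higher and 7 (31.8%) lower on both arrays. The median ratio was 0.26 for the laminins and 0.04 for the integrins, beside 0.01 for all features. The laminin median was 0.16 on the male array alone and 0.28 on the female array alone. Some of these ratios lay near 0, such as those of Lama5 on the male and Lamb1 on the female array. With a margin of 0.1 on both arrays, 4 laminins and 5 integrins were higher, beside 9.51% of all features, and 0 laminins and 3 integrins were lower, beside 8.3%. With median centring in place of loess, 3 integrins in place of 7 were lower on both arrays, and without the filter on dim probes the integrin median was -0.02. The 27 features past the test ranged from 0 to 41 over the alternative settings, with no member among them, and 2 members (Itga4 and Lama1) in place of 1 passed 1.5-fold on both arrays with Agilent's processed signals or the deposited value table.

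**Figure D1:**
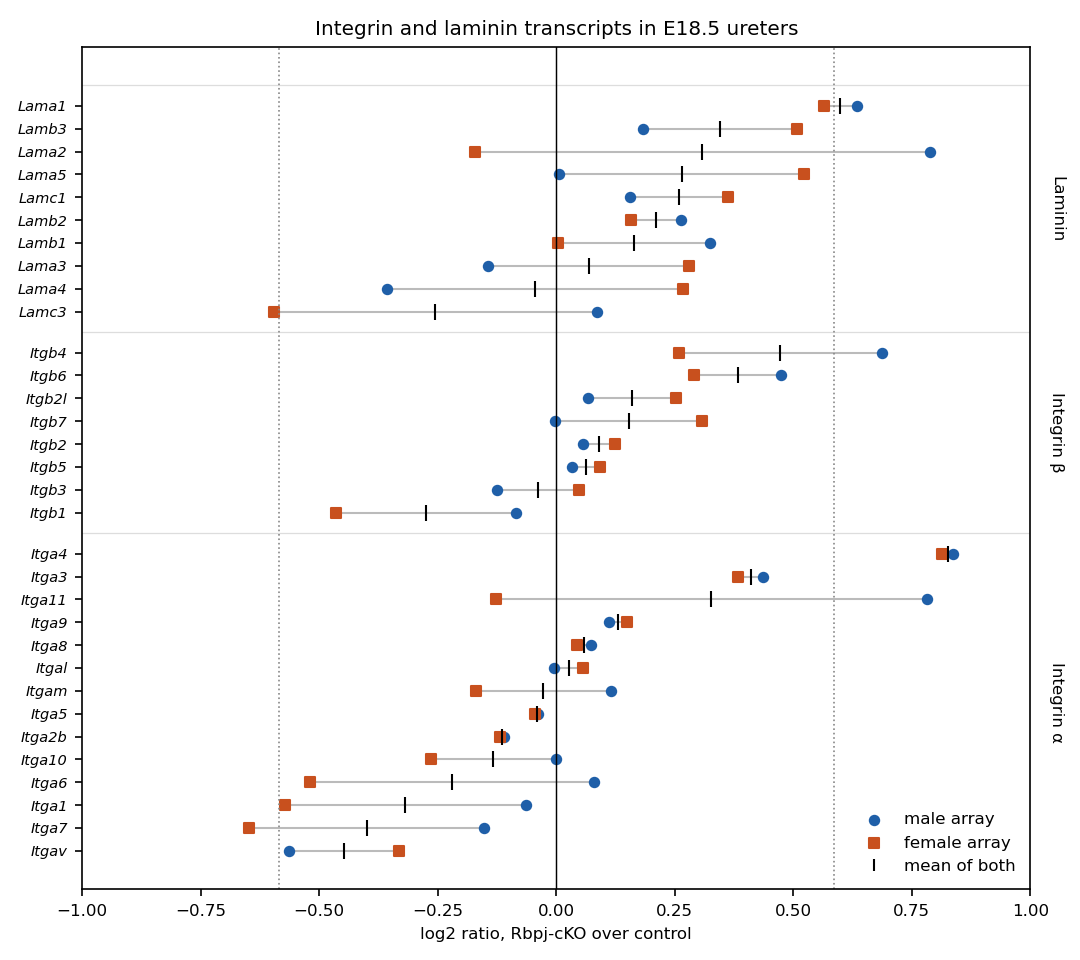
Log2 ratio of Rbpj-cKO over control (horizontal axis) for 32 of the 33 measured genes, in blocks of integrin alpha, integrin beta and laminin genes, with circles for the male array, squares for the female array and a tick at their mean; dotted lines mark a 1.5-fold change. Itga4 is the 1 gene with both points beyond a dotted line (0.84 and 0.81), and no laminin shown has both points left of 0.

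Itga4 had the largest ratio among the 33 genes. It encodes integrin alpha4, which with beta1 or beta7 binds the cell-surface protein VCAM1 and an alternatively spliced stretch of fibronectin. On the male array the channel level (log2 intensity) was 12.96 in Rbpj-cKO and 12.13 in control RNA. On the female array it was 13.02 in Rbpj-cKO and 12.21 in control RNA. Both Rbpj-cKO levels lay above both control levels, and the ratios of 0.84 and 0.81 differed by little. The mean was 0.83 (SD 0.02, n = 2), a 1.77-fold higher level, with a limma adjusted p of 0.31, which misses the threshold. The probe lies at chr2:79173193-79173252 on mm9. The dim probe printed above was well above background in female Rbpj-cKO RNA only, and its ratios, 0.18 and 0.48, stand as values near background.

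The partners and ligands of alpha4 gave smaller values. Itgb7, which can pair with alpha4, had ratios of -0.00 and 0.31, and Itgb1 had -0.09 and -0.47. The ligand gene Vcam1 had 0.46 and 0.29 (adjusted p = 1), Fn1, fibronectin, had 0.28 and -0.30, and Madcam1, a ligand of alpha4beta7, had -0.18 and -0.81. Itga9, whose product is the closest relative of alpha4 and binds tenascin C and VCAM1, had 0.11 and 0.15. Alpha4 is also made by leukocytes and mesothelium. Ptprc, which marks leukocytes, had -0.08 and 0.10, and 0 of 14 macrophage and leukocyte markers were higher on both arrays. The 7 mesothelium markers had a median of 0.50 (male array) and -0.21 (female array), so these medians had opposite signs. Among them, Krt19 and Upk3b are also urothelium markers, so the medians are not those of mesothelium alone. The mean level of these mesothelium markers was 12.83 and 12.20 on the male array, and 12.48 and 12.69 on the female array. The part of either cell type in the Itga4 value was not tested. In bulk RNA, a change in the number of cells of a type and a change in RNA per cell cannot be told apart.

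**Figure D2:**
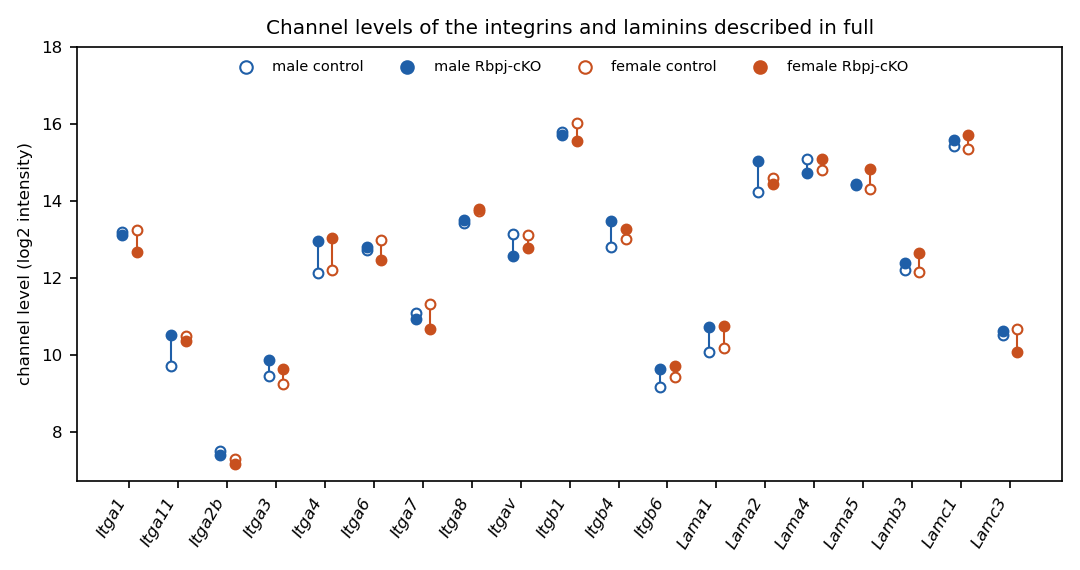
Channel level (log2 intensity, vertical axis) of the 19 genes described in full, with open circles for control and filled circles for Rbpj-cKO RNA, male to the left and female to the right of each gene; a line joins the 2 channels of an array. Levels compare within a gene only, since each comes from another probe, and Itga4 and Lama1 show lines of like length and direction on both arrays.

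The alpha subunits of the laminin receptors gave mixed values. Itga3, the alpha subunit of an epithelial laminin receptor, had levels of 9.87 in Rbpj-cKO and 9.44 in control RNA on the male array, and 9.63 and 9.24 on the female array. Both Rbpj-cKO levels lay above both control levels, and its ratios of 0.44 and 0.38 (mean 0.41, SD 0.04, adjusted p = 1) were alike. Itga7, the laminin receptor subunit of muscle, had levels of 10.94 and 11.09 on the male array, and 10.67 and 11.32 on the female array. Here both control levels were the higher ones, and the ratios were -0.15 and -0.65 (mean -0.40, SD 0.35, adjusted p = 1). Itga6, which pairs with beta1 or beta4, had 12.80 and 12.72 on the male array but 12.47 and 12.99 on the female array. Its ratios of 0.08 and -0.52 (mean -0.22, SD 0.42, adjusted p = 1) had opposite signs.

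Itgb4, the partner of alpha6 in hemidesmosomes, went with higher ratios. Its levels were 13.48 in Rbpj-cKO and 12.79 in control RNA on the male array, and 13.28 and 13.02 on the female array. The groups did not overlap, and the ratios were 0.69 and 0.26 (mean 0.47, SD 0.30, adjusted p = 1). The list of 5 other hemidesmosome genes includes the keratins Krt5 and Krt14. Of the 5, 4 were higher on both arrays, beside 21.7% of all features. Krt5, a basal keratin that is also among the urothelium markers, had 0.56 and 0.53, and Plec, plectin, had 0.20 and 0.48. The lowest were Col17a1, the transmembrane collagen of hemidesmosomes, with -0.02 and -0.01, and Krt14, with 0.39 and 0.11. All 5 had an adjusted p of 1.

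Itgb1, the beta subunit shared by most integrins, had levels of 15.70 in Rbpj-cKO and 15.79 in control RNA on the male array. On the female array they were 15.55 and 16.01. Both control levels were the higher ones, and the ratios of -0.09 and -0.47 (mean -0.28, SD 0.27, adjusted p = 1) came mostly from the female array. Its other probe gave -0.06 and -0.59, so both stretches of the transcript read alike.

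Among the collagen receptors, which all pair with beta1, Itga1 had levels of 13.12 and 13.18 on the male array and 12.68 and 13.25 on the female array. Its ratios were -0.06 and -0.57 (mean -0.32, SD 0.36, adjusted p = 1), and its dimmer probe gave -0.23 and -0.19. Alpha1 is a collagen IV receptor abundant in smooth muscle. Itga11, a fibroblast receptor for fibrillar collagen, had 10.50 and 9.72 on the male array and 10.36 and 10.49 on the female array. The ratios of 0.78 and -0.13 (mean 0.33, SD 0.64, adjusted p = 1) had opposite signs. Itga10 had -0.00 and -0.27, with a second probe at -0.00 and -0.20.

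The receptors for arginine-glycine-aspartate ligands were lower or close to 0. Itgav, the alpha subunit of several such receptors, had levels of 12.56 in Rbpj-cKO and 13.13 in control RNA on the male array. On the female array they were 12.78 and 13.11. The groups did not overlap, and the ratios were -0.56 and -0.33 (mean -0.45, SD 0.17, adjusted p = 1), the lowest mean among the 33 genes. Its dimmer probe gave -0.06 and 0.17, so the lower value rests on 1 of 2 probes, and the mean of both probes was -0.20. Itga8, which with beta1 binds nephronectin and is required for outgrowth of the ureteric bud in kidney development, had 13.51 and 13.43 on the male array, and 13.79 and 13.75 on the female array. Its ratios of 0.07 and 0.04 (mean 0.06, SD 0.02, adjusted p = 1) were small (mean 0.11 with median centring), and Npnt, nephronectin, had 0.17 and 0.12. Itga5, the fibronectin receptor subunit, had -0.04 on both arrays.

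Itga2b, the platelet alpha subunit, was close to background. Its levels were 7.39 and 7.50 on the male array, and 7.17 and 7.29 on the female array, where the control was not well above background. The ratios were -0.11 and -0.12 (mean -0.11, SD 0.01, adjusted p = 1), and the mean was -0.38 with processed signals and -0.22 with the value table. The 7 platelet and megakaryocyte markers, Itga2b among them, had a median of 0.09, with Gp9 (0.17) and Gp1bb (0.12) highest and Pf4 (-0.18) lowest.

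Itgb6, Itgb5 and Itgb3, whose products can pair with alphav, were not lower on both arrays at their brightest probes. Itgb1, shared by most integrins and given above, was lower on both. Itgb6, an epithelial subunit whose receptor activates latent TGF-beta, had 9.64 and 9.16 on the male array, and 9.71 and 9.42 on the female array. Both Rbpj-cKO levels were the higher ones, with ratios of 0.47 and 0.29 (mean 0.38, SD 0.13, adjusted p = 1), but its dimmer probe gave 0.36 and -0.30, and the mean of both probes was 0.21. Itgb5 had 0.03 and 0.09, and Itgb3, also a platelet subunit, had -0.13 and 0.05.

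The leukocyte integrins lay close to 0. Itgb2, their shared beta subunit, had 0.06 and 0.12, Itgb2l had 0.07 and 0.25 with the female control not well above background, Itgal had -0.00 and 0.06, and Itgam, the macrophage and neutrophil subunit, had 0.11 and -0.17. The dimmer Itgam probes gave 0.03 and -0.21, and -0.06 and -0.20. Of the 14 macrophage and leukocyte markers, 6 were lower on both arrays, with a median of -0.09. Their mean level was 12.15 and 12.13 on the male array, and 11.87 and 12.17 on the female array. C1qb and C1qa, complement genes of tissue macrophages, had the lowest means (-0.49 and -0.36), and Laptm5 and Adgre1 the highest (0.06 and 0.04). Their part in the leukocyte integrin values was not tested.

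**Figure D3:**
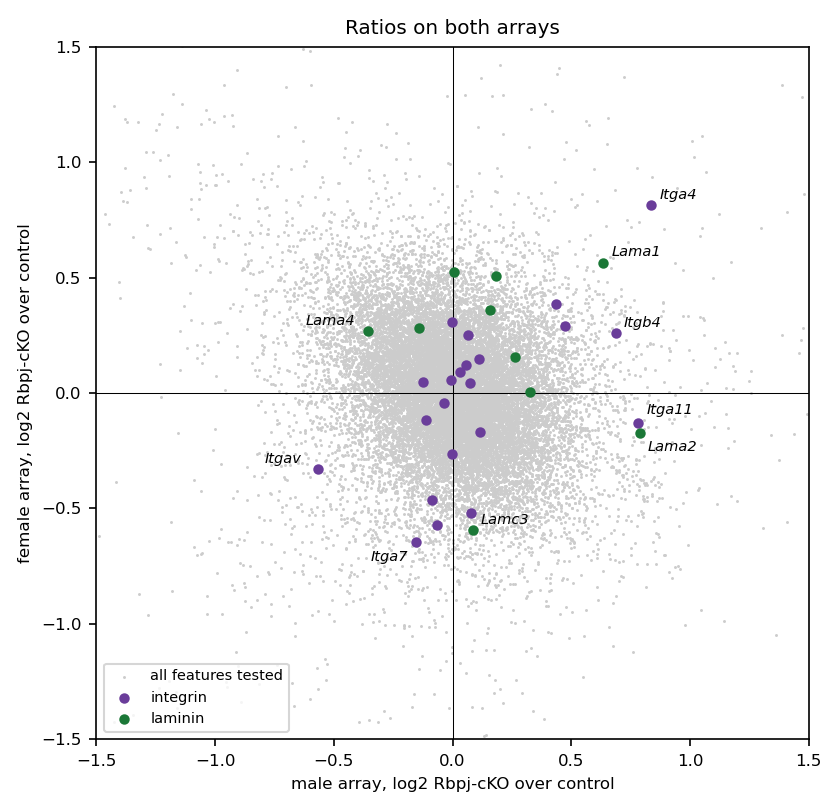
Log2 ratio of Rbpj-cKO over control on the male (horizontal) and female (vertical) array for all 20989 features (grey) and for the integrin (purple) and laminin (green) genes shown; 98 features lie outside the plotted range of 1.5 either way. Itga4 and Lama1 sit in the upper right, apart from the grey mass, while Itga11 and Lama2 are high on the male array only.

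Lama1 had the highest mean ratio of the laminins. It encodes the alpha1 chain of the first laminin of the embryo, which later stays in a few epithelial basement membranes. On the male array its level was 10.71 in Rbpj-cKO and 10.08 in control RNA, and on the female array 10.75 and 10.18. The groups did not overlap, and the ratios of 0.63 and 0.57 were alike. The mean was 0.60 (SD 0.05, n = 2), a 1.52-fold higher level, with a limma adjusted p of 0.894. The probe lies at chr17:68171924-68171983 on mm9. The ratio on the female array falls just short of a 1.5-fold change (0.585 on the log2 scale).

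The other alpha chains were less even. Lama5, the main alpha chain of mature epithelial and vessel basement membranes, had 14.43 and 14.43 on the male array, and 14.82 and 14.30 on the female array. The ratios were 0.01 and 0.52 (mean 0.26, SD 0.37, adjusted p = 1), so the mean came from the female array. Lama2, the chain of muscle and peripheral nerve, had 15.03 and 14.24 on the male array and 14.43 and 14.60 on the female array, which gave 0.79 and -0.17 (mean 0.31, SD 0.68, adjusted p = 1). The second Lama2 probe gave 0.10 and 0.39. The Lama2 probes thus put their larger ratio on different arrays. Lama4, the chain of endothelium and smooth muscle, had 14.73 and 15.08 on the male array, and 15.08 and 14.82 on the female array, with ratios of -0.36 and 0.27 (mean -0.04, SD 0.44, adjusted p = 1, and -0.09 with processed signals). Lama3 had -0.14 and 0.28, and its second probe 0.20 and 0.15.

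Lamb3, a chain of the laminin that anchors hemidesmosomes, had levels of 12.39 in Rbpj-cKO and 12.20 in control RNA on the male array, and 12.65 and 12.14 on the female array. Both Rbpj-cKO levels were the higher ones, with ratios of 0.18 and 0.51 (mean 0.35, SD 0.23, adjusted p = 1).

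The beta and gamma chains found in most laminins had modest positive means, with Lamb1 near 0 on the female array. Lamc1, the gamma chain of most laminins, had 15.58 and 15.42 on the male array, and 15.72 and 15.36 on the female array. Both Rbpj-cKO levels were the higher ones, with ratios of 0.16 and 0.36 (mean 0.26, SD 0.15, adjusted p = 1). Lamb1, named Lamb1-1 in the files, had 0.33 and 0.00, and Lamb2, the later beta chain of muscle and vessels, had 0.26 and 0.16. Lamc3 had 10.61 and 10.53 on the male array, and 10.07 and 10.67 on the female array, and its ratios of 0.08 and -0.59 (mean -0.25, SD 0.48, adjusted p = 1) gave the lowest laminin mean.

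The rest of the basement membrane leaned the same way as the laminins where the arrays agreed in sign. Of 20 other components measured, 9 (45.0%) were higher on both arrays and 0 lower on both, beside 21.7% and 19.7% of all features. The remaining 11 had opposite signs. The median was 0.26, and none passed the test. With the margin of 0.1, 7 were higher (35.0%), beside 9.51% of all features. Frem1, of the matrix complex beneath epithelia, had the highest mean (0.88, from 1.48 and 0.28, adjusted p = 0.737). Col4a6, a collagen IV chain of epithelial and smooth muscle basement membranes, had 0.74 and 0.66 (mean 0.70, adjusted p = 0.553). The lowest were Smoc1, with -0.29 and 0.14, and Nid1, the laminin-binding linker nidogen, with 0.29 and -0.38.

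Non-integrin laminin receptors and integrin partners gave 6 higher, 4 lower and 11 of opposite sign among 21 genes, with a median of 0.06. Sdc4, a syndecan that acts with integrins at adhesion sites, had 1.11 and 0.11, and Bcam, a receptor for laminin alpha5, had 0.18 and 0.53. The muscle sarcoglycans Sgca and Sgcb had the lowest means (-0.38 and -0.28). Of 25 integrin ligands other than laminins, 7 were higher and 4 lower on both arrays, with a median of 0.05. Spp1, osteopontin, had the highest mean but opposite signs (1.41 and -0.56), followed by Vcam1, and Madcam1 and Thbs1 had the lowest means (-0.49 and -0.42). Of 33 genes of the integrin adhesion complex, 5 were higher and 7 lower on both arrays, with a median of -0.01. Ptk2b and Tln1, talin, had the highest means (0.31 and 0.24), and Lims1 and Vasp the lowest (both -0.35). None of these genes passed the test.

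**Figure D4:**
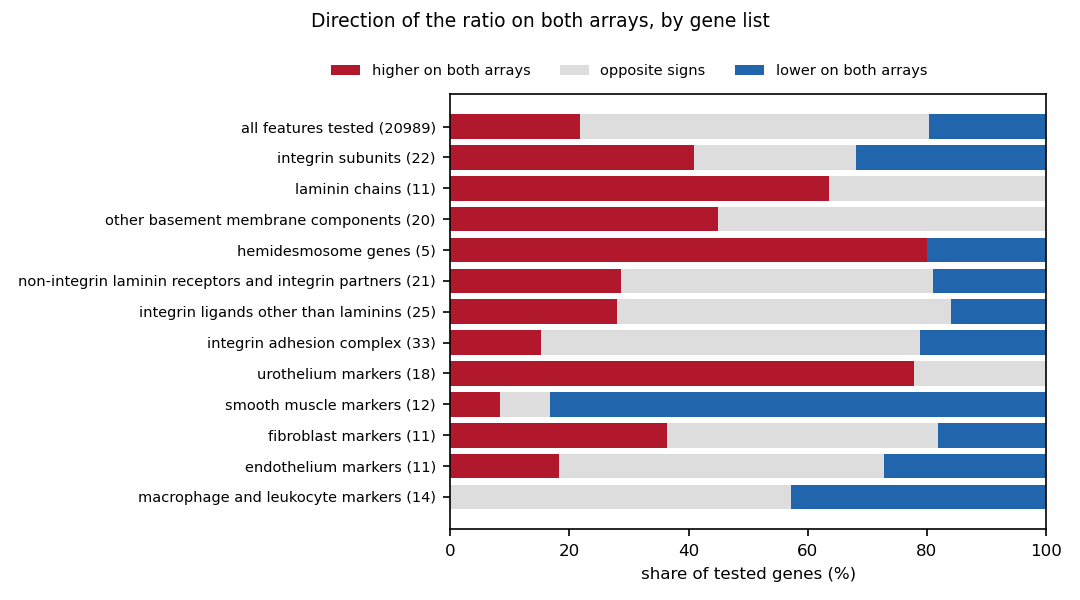
Share of tested genes (horizontal axis, percent) higher on both arrays, of opposite sign, or lower on both arrays, for all features, the integrins and laminins, related gene lists and cell type markers, with the number tested in brackets. The laminins have 63.6% higher and 0.0% lower on both arrays, beside 21.7% and 19.7% of all features.

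Markers of the 2 main tissues of the ureter differed in direction beside these values. Of 18 urothelium markers, 14 were higher on both arrays and 0 lower, with a median of 0.23. Their mean level was 15.28 in Rbpj-cKO and 15.10 in control RNA on the male array, and 15.36 and 15.08 on the female array. Krt5 and Gata3 had the highest means (0.55 and 0.44), and Shh and Trp63 the lowest (-0.12 and 0.01), both with opposite signs. On the male array the medians were 0.16 for the laminins, 0.29 for the other basement membrane components, 0.21 for the hemidesmosome genes and 0.21 for the urothelium markers. On the female array they were 0.28, 0.28, 0.30 and 0.28 in the same order. Of 12 smooth muscle markers, 10 were lower on both arrays and 1 higher, with a median of -0.36. Their mean level was 13.59 in Rbpj-cKO and 14.02 in control RNA on the male array, and 13.53 and 13.87 on the female array. Synpo2 and Ldb3 had the lowest means (-0.89 and -0.71), and Smtn and Tagln the highest (0.16 and -0.13). No urothelium or smooth muscle marker passed the test. The part of either tissue's amount in the values of Itgb4, Itga3 and the laminins, or in those of Itga7, Itga1 and Itgb1, was not tested.

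Other cell types gave smaller or uneven medians, apart from skeletal muscle. The 11 endothelium markers had a median of -0.05, with Robo4 (0.47) and Cdh5 (0.17) highest and Tek (-0.41) and Egfl7 (-0.37) lowest. The 11 fibroblast markers had a median of 0.25 (male array) and -0.02 (female array), with Col1a2 (0.39) and Dcn (0.34) highest by mean and Dpt (-1.05) and Mfap4 (-0.78) lowest. The 11 nerve and glia markers had a median of -0.08, with Prph (0.36) and Tubb3 (0.21) highest and Th (-0.59) and Stmn2 (-0.42) lowest. Of the mesothelium markers Muc16 (0.49) and Msln (0.35) were highest and Lrrn4 (-0.31) and Wt1 (0.15) lowest. Of 7 skeletal muscle markers, 5 were lower on both arrays, and Ckm, the muscle creatine kinase, fell by 1.43 on the log2 scale (limma adjusted p = 0.0203). That call was lost in 5 of the 7 alternative settings with a test (adjusted p from 0.0522 with the mean of probes to 1 with median centring) and kept with probes well above background in all 4 channels (0.0106) and the intensity trend (0.00822), a check added after seeing the data. Next lowest was Tnnt3 (-0.44), and Tnni2 (0.16) and Actn2 (-0.04) were highest. Skeletal muscle also makes Itga7, and its part in that value was not tested.

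Promoter windows of RefSeq (GRCm38.p6), from 250 bases before to 50 after a gene's start, were searched on both strands for TGGGAA, the core letters of the RBPJ motif, and for GTGGGAA, which contains it. Of the 38 genes, 24 have a window in the table. TGGGAA stood in windows of 4 of the 24 genes (16.7%), namely Itga2b, Lama2, Lamb1 and Lamb3, beside 28.3% of all 27025 genes. GTGGGAA stood in 0 of the 24, beside 7.25% of all genes. Itga4 has a window with no match to either.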

How the data were processed

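Per the labels' protocols, total RNA of dissected ureters was amplified and labelled with AlexaFluor555 or AlexaFluor647. Spot intensity values were read from the deposited scanner files (Agilent Feature Extraction 10.7.3.1, per the submitters' processing notes). Per probe, the deposited value table of the series gives a score, with a median of 1 in each column. Among probes of 1 spot, it matched a signed fold from the processed signals within 0.001 for 100% with both signals above a floor. Over all probes of 1 spot the match was 67.14% (male array) and 66.94% (female array). No source used here says how the score was made, and it served as an alternative.

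Mean signals were corrected with normexp against the median background (offset 50), then loess normalization was run per array, giving control spots weight 0. Outlier spots (200 and 274) and controls were then dropped. Channel levels were made comparable with Aquantile. A probe was kept if both Rbpj-cKO channels, or both control channels, were well above background, and the brightest probe stood for a gene. Names came from RefSeq accessions for 26412 of 39429 probes, and 13017 kept the name in the files. Probe positions are those of the files, on mm9, and whether a probe lies in an exon, intron or UTR was not analysed here. Ratios, all set as Rbpj-cKO over control, went into limma 3.58.1 under R 4.3.3 (lmFit and eBayes, two-sided), and p-values were adjusted by Benjamini-Hochberg over 20989 features. The fit had 1 residual and 10.3 prior degrees of freedom, and this step was first tested on simulated data. Both arrays lie on 1 slide and in 1 scan.

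The values of 1 laminin gene are not reported here, although it enters the counts and medians. The gene lists were chosen with earlier results of these data known. The 19 genes described in full are the 1 with a 1.5-fold change on both arrays, the 5 highest and 5 lowest others of 1 sign on both arrays when ranked by the smaller of their 2 absolute ratios, the 4 with the largest gap between arrays of opposite sign, and 7 taken whatever their values (Itga8, Itga7, Itgb1, Itgb4, Itga6, Lama5 and Lamc1). Of each other list the genes past the test and the highest and lowest 2 are named. Vcam1, Fn1, Madcam1, Npnt, Ptprc and Plec are named as ligands, partners or markers of the gene described beside them. Alternatives were processed signals, median centring, other filters, the mean of probes, an intensity trend, the value table and each array alone.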

Additional observations from a re-analysis of the deposited data

Results flagged for a closer look

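For 5 genes the arrays gave opposite signs with a gap of at least 1.5-fold (0.585 on the log2 scale). The male minus the female log2 ratio was 0.96 for Lama2, 0.91 for Itga11, 0.68 for Lamc3, 0.60 for Itga6 and -0.62 for Lama4. For Lama2 the second probe gave 0.10 and 0.39, with no opposite sign. These differences between the arrays were not tested, and sex, dye orientation and RNA pair cannot be told apart in them. Over all features the ratios of the 2 arrays had a Pearson r of -0.178, and 218 features had a 1.5-fold change on both arrays in opposite directions.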

How the results depend on the processing

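No integrin or laminin gene passed the test under any of the 7 alternatives that gave one, and the mean ratio of each of the 19 genes kept its sign in all 132 values they gave. The lowest adjusted p of a member was that of Itga4 in the results above (0.31), and the adjusted p of Itga4 ranged from 0.215 with an intensity trend to 1 with median centring. The 27 features past the test became 0 with processed signals, with median centring, without a filter on dim probes and with the series value table, 10 with the mean of probes and 41 with an intensity trend, and the cause was not tested. The 134 features changed 1.5-fold on both arrays became 290 with processed signals and 260 with the value table, where Lama1 joined Itga4, so that the members with such a change went from 1 to 2. Median centring moved the median of all features to 0.17 (male array) and -0.09 (female array), and left 3 in place of 7 integrins lower on both arrays. The integrin median of 0.04 was 0.0341 with processed signals and with the value table, 0.0799 with median centring, -0.0188 without the filter and 0.0397 with the mean of probes. On single arrays it was 0.0448 and 0.0459, and the laminin median was 0.1558 and 0.2802. The counts of laminins higher on both arrays lay between 6 and 9, with 0 lower on both throughout. Following these counts over the alternatives was added after seeing the data. A slide block could not be run with 1 slide and 1 scan, and an array alone gives no test. Median signal over median background was 6.38 to 13.3, and the 2 arrays limit the precision.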
